A study of Rattus norvegicus with 11 samples.

Results

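The immune checkpoint and costimulation genes examined here were 8 genes, chosen by symbol from the 23781 genes of the count and FPKM tables. They were Cd274 and Pdcd1lg2 (the ligands PD-L1 and PD-L2), Cd80 and Cd86 (the B7 ligands), Cd40, Cd200r1, Sirpa and Cd47, and all 8 passed the filter on low counts that left 18049 genes to test. The libraries were made from Cd45- cells, sorted from collagenase-digested nascent tissue of coronal suture-bony composite defects in the cranium of Sprague Dawley rats aged 4 months, 6 weeks after surgery. The defects of NC received no scaffold (n = 3 libraries). Those of the other groups received GelMA, a gelatin methacryloyl hydrogel (n = 3), CTS, a porous chitosan scaffold (n = 3), or PLA, a polylactic acid electrospinning membrane (n = 2), without added cells. Every group had the same surgery, the study's methods give the rats as male, and no source used here says whether the libraries of a group came from separate animals, so that the p-values measure the spread between these libraries, which may be in part technical.

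These genes encode surface proteins through which phagocytes, antigen-presenting cells and stromal cells set the response of lymphocytes and of each other. Cd274 and Pdcd1lg2 engage the receptor encoded by Pdcd1 on T cells and restrain them, while Cd80 and Cd86 engage Cd28, which stimulates T cells, or Ctla4, which inhibits them. Cd40 is a receptor of the TNF family on antigen-presenting and stromal cells that answers to Cd40lg on T cells. Cd200r1 and Sirpa are inhibitory receptors of myeloid cells, whose ligands are encoded by Cd200 and by the widely expressed Cd47. Fibroblasts and other mesenchymal cells can display several of these proteins, Cd274, Cd40 and Cd47 among them.

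The promoter sequences of the ligand pairs are printed here because the members of each pair share a receptor and, for Cd274 and Pdcd1lg2, were both called in 4 of the 6 comparisons. RefSeq promoter windows in the assembly GRCr8 were found for 5 of the 8 genes, and none was found for Cd40, Cd200r1 and Sirpa. The tables were made on another assembly, mRatBN7.2, so these windows were set beside the values by symbol only. Each sequence below is the 250 bases before an annotated start, read 5′ to 3′ on the strand of the gene, and capitals mark matches to a motif described after them. The Cd274 window is chr1:236529982-236530231 (plus strand) and the Pdcd1lg2 window chr1:236572247-236572496 (plus strand). The Cd80 window is chr11:75797541-75797790 (minus strand) and the Cd86 window chr11:77669031-77669280 (plus strand). The windows of Cd274, Cd80 and Cd86 lie inside the span that RefSeq gives the gene, and that of Pdcd1lg2 just before it.
Cd274: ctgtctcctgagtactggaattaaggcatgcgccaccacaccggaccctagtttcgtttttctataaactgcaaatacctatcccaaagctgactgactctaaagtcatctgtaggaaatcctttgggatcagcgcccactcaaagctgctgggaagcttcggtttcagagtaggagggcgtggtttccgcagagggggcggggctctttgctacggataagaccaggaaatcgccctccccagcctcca
Pdcd1lg2: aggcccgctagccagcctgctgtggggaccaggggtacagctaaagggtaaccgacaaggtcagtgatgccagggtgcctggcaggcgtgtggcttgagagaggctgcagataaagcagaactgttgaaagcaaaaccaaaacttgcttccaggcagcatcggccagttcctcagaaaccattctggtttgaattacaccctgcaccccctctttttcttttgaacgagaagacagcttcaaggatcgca
Cd80: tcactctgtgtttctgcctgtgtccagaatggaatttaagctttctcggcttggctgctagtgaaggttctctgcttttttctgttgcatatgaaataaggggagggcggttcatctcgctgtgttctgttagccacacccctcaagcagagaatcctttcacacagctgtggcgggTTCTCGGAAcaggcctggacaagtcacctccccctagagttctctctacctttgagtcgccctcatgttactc
Cd86: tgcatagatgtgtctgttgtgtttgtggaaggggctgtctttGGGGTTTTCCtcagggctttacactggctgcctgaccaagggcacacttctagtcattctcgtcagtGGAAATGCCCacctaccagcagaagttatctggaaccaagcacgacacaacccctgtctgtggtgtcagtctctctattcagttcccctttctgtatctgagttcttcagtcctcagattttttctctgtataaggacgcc

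The motifs searched, on both strands, were GGG and CC with 5 bases of any kind between them for NF-κB (kappa B), TTCNNNGAA for STAT factors (GAS), GAAA and GAAA with 2 bases of any kind between them for IRF factors (ISRE) and TGANTCA for AP-1. The Cd86 window held the kappa B matches GGGGTTTTCC, at 208 to 199 bases before the start, and GGAAATGCCC, at 141 to 132 bases before it. The Cd80 window held the GAS match TTCTCGGAA at 73 to 65 bases before the start. A further Cd80 window, before another annotated start and not printed, held a kappa B match at 26 to 17 bases and an ISRE match at 207 to 198 bases before that start, and the Cd47 window, also not printed, held a kappa B match at 164 to 155 bases. The windows of Cd274 and Pdcd1lg2 held no match to any of these letters. Among all 33469 windows of this length, 42.3% held the kappa B letters, 7.67% the GAS letters, 3.41% the ISRE letters and 6.34% the AP-1 letters, so that a kappa B match was common. In RefSeq, Pdcd1lg2 is the next protein-coding gene after Cd274 on the same chromosome, with the pseudogene Nip7-ps2 between them. The gene Plgrkt overlaps the start of Cd274 in that annotation, and at 1.36 to 8.22 CPM over the 11 libraries it was not called in any comparison. It was looked up after the values of Cd274 had been seen.

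Levels are given as CPM, the counts set to a common library total after correction by TMM factors, which adjust each library for its makeup, or as FPKM as the authors deposited it, which also divides by gene length. Total counts ran from 22509898 to 27522199 in NC, from 29108144 to 30587865 in GelMA, from 28377088 to 31290849 in CTS and from 30150370 to 30932534 in PLA. A difference was called where edgeR, fitted once to the 11 libraries with its quasi-likelihood test, gave an adjusted p (Benjamini-Hochberg) under 0.05 together with a log2 fold change larger than 1. The TMM factors were 0.77 to 0.78 in PLA and 1.05 to 1.14 in the other groups, with the exception of NC replicate 2 at 0.80. Scaling by library size alone moved the median log2 fold change of all genes against NC from -0.11 to -0.43 in PLA and from -0.05 to 0.16 in GelMA, and that of PLA against GelMA from -0.04 to -0.58 and against CTS from -0.03 to -0.51. Log2 fold changes of PLA are therefore relative to that choice, and directions that flip with it are given with the gene.

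Ptprc, which encodes Cd45, was present in every library of these Cd45- cells, at 1460, 336 and 1167 CPM in NC, 1347, 1138 and 1259 in GelMA, 1272, 1184 and 1036 in CTS and 1020 and 1055 in PLA. NC replicate 2 stood apart, with the lowest Ptprc, a summed macrophage marker level of 2896 CPM against 11684 and 9641 CPM in the other NC libraries, and a summed fibroblast and osteoblast marker level of 229329 CPM against 9528 and 29005 CPM. Several genes of this family are expressed by leukocytes, so that fewer cells of a type and less RNA per cell cannot be told apart in these libraries, and marker levels are given beside the results.

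Against NC, 4 of the 8 genes were called higher in PLA, namely Cd274, Pdcd1lg2, Cd80 and Cd40, and 0 lower, where 8.32% of all genes tested were called higher and 4.01% lower. Against NC, 5 of 8 were called higher in GelMA, namely those 4 and Cd86, and 0 lower, where 5.03% of all genes were called higher and 3.21% lower. In CTS none of the 8 was called against NC by edgeR, where 0.155% of all genes were called higher and 0.0222% lower, with 4 of 8 at an unadjusted p under 0.05, all 4 higher in CTS, 3 called higher by DESeq2, which called 1.99% of its genes higher, and 0 by limma on log2(FPKM + 1). The share of all genes at an unadjusted p under 0.05 was not counted, so those 4 have no background beside them. PLA had 1 gene called higher than in GelMA, Cd274, against 4.61% of all genes, and 1 called lower, Cd80, against 1.47%. PLA had 2 called higher than in CTS, Cd274 and Pdcd1lg2, and 0 lower, against 6.42% and 3.53% of all genes. CTS had 2 called lower than in GelMA, again Cd274 and Pdcd1lg2, and 0 higher, against 1.32% and 0.416% of all genes.

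Without the fold threshold, 6 of the 8 had an adjusted p under 0.05 for PLA against NC (15.6% of all genes), 6 for GelMA against NC (10.7%), 3 for PLA against GelMA (9.19%), 3 for PLA against CTS (14.0%), 2 for CTS against GelMA (2.08%) and 0 for CTS against NC (0.188%). The libraries of the groups did not overlap in CPM for 8 of the 8 genes between PLA and NC (39.0% of all genes), for 6 between GelMA and NC (30.5%), 3 between CTS and NC (14.6%), 7 between PLA and GelMA (58.4%), 6 between PLA and CTS (54.3%) and 5 between CTS and GelMA (36.0%). Over all genes the split of calls moved with the scaling, from 1502 higher and 724 lower to 1078 and 1531 with library size alone for PLA against NC, from 832 and 266 to 438 and 2312 for PLA against GelMA, from 1158 and 637 to 688 and 2227 for PLA against CTS, and from 908 and 580 to 1216 and 425 for GelMA against NC. With that scaling the counts of the 8 genes called higher in PLA and in GelMA against NC were 3 and 5. Without NC replicate 2 the counts called higher were 5 for PLA and 5 for GelMA against NC, 3 for PLA against GelMA and 3 for PLA against CTS, where the shares of all genes called higher rose to 11.4%, 7.26%, 7.2% and 8.88%. Without PLA replicate 2 the count for PLA against NC was 2, with 4.70% of all genes called higher. The 6 comparisons share groups and are not independent of each other. The median log2 fold change of the 8 genes was 1.10 for PLA against NC and 1.59 for GelMA against NC, beside -0.11 and -0.05 over all genes tested.

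**Figure D1:**
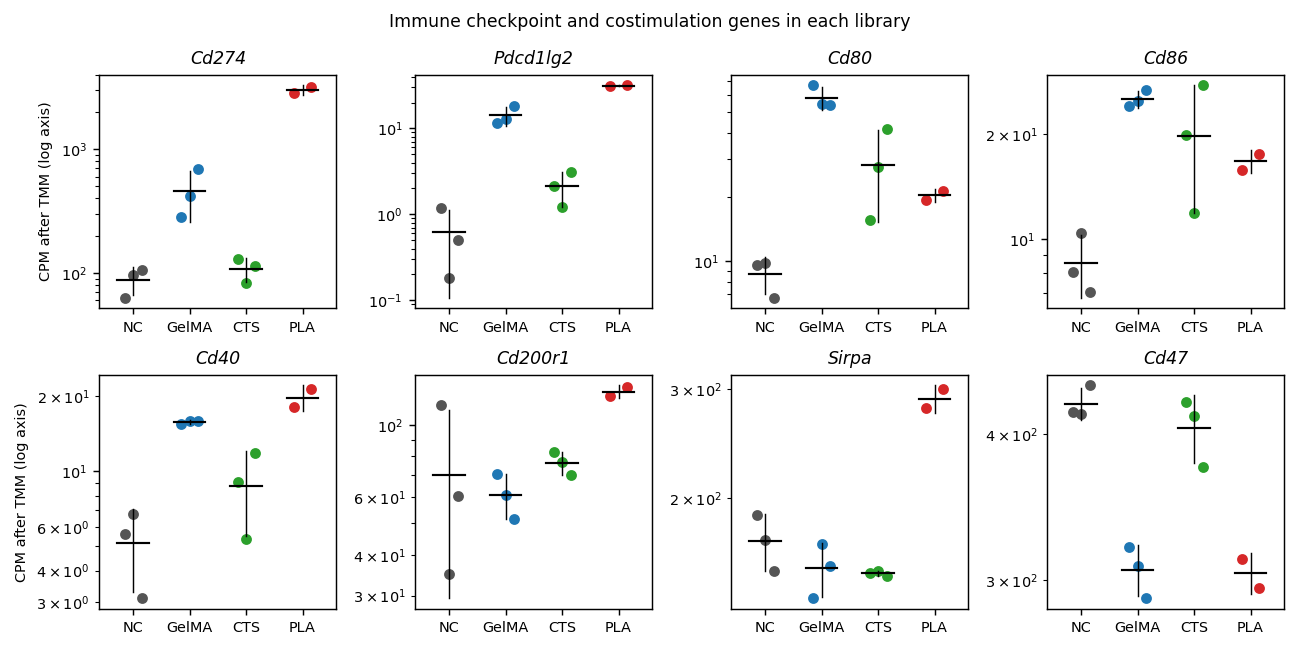
CPM after TMM (log axis) of the 8 genes in the 11 libraries, by group, with points for libraries, a horizontal bar for the group mean and a vertical bar for the SD. Cd274 stands at 2819 and 3209 CPM in PLA, above 281 to 686 in GelMA and 63.0 to 130 in NC and CTS, while Cd80 is highest in GelMA and Cd47 lower in GelMA and PLA than in NC.

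Cd274, which encodes the inhibitory ligand PD-L1, showed the widest range of the 8 genes in CPM. It stood at 63.0, 96.9 and 106 CPM in NC, at 281, 422 and 686 in GelMA, at 130, 82.6 and 113 in CTS and at 2819 and 3209 in PLA. The PLA libraries lay above all others and the GelMA libraries above all of NC and CTS, whose ranges overlapped. Cd274 rose in PLA by 5.09 on the log2 scale over NC (SE 0.40, adjusted p = 5.4e-05), a 34.0-fold difference, by 4.80 over CTS (SE 0.39, adjusted p = 7.9e-05) and by 2.70 over GelMA (SE 0.36, adjusted p = 0.0019). It rose in GelMA over NC by 2.39 (SE 0.34, adjusted p = 0.0024), and CTS differed from NC by 0.29 (SE 0.32, adjusted p = 0.76). Over 20 other settings these 4 rises were called in each, and the log2 fold change of PLA over NC ran from 4.71 to 5.28. Its fall in CTS relative to GelMA, by 2.09 (SE 0.34, adjusted p = 0.017), lost its call without GelMA replicate 2 or 3 or CTS replicate 1 or 2, with adjusted p from 0.069 to 0.092. The log2 fold change then ran from -2.21 to -1.67. The share of all genes called lower fell from 1.32% to between 0.00559% and 0.235% in these settings.

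Pdcd1lg2, which encodes PD-L2, the other ligand of the same receptor, was far less abundant per length, at a mean of 3.44 FPKM in PLA where Cd274 stood at 472 FPKM. It stood at 1.19, 0.18 and 0.50 CPM in NC, from 4 to 28 counts a library, at 11.5, 12.9 and 18.1 CPM in GelMA, at 2.13, 1.23 and 3.11 in CTS and at 31.0 and 31.7 in PLA. No 2 groups overlapped, in the order NC, CTS, GelMA and PLA. Pdcd1lg2 rose in PLA by 5.64 on the log2 scale over NC (SE 0.61, adjusted p = 0.00028) and by 3.86 over CTS (SE 0.56, adjusted p = 0.0018), and in GelMA by 4.49 over NC (SE 0.57, adjusted p = 0.0014). In limma on log2(FPKM + 1), where a pseudocount holds down a low gene, the rise of PLA over NC shrank to as little as 2.03. The difference of PLA from GelMA, 1.15 (SE 0.52, adjusted p = 0.20), was not called, and CTS differed from NC by 1.78 (SE 0.54, adjusted p = 0.22, or 0.039 with DESeq2). PLA against GelMA passed without NC replicate 2 (adjusted p = 0.045) and in edgeR on these 2 groups alone (adjusted p = 0.0018). Its fall in CTS relative to GelMA, by 2.71 (SE 0.51, adjusted p = 0.030), lost its call without any 1 of the 3 GelMA libraries or CTS replicate 1 or 2, with adjusted p from 0.083 to 0.13. The log2 fold change then ran from -2.81 to -2.41. The share of all genes called lower fell from 1.32% to between 0.00559% and 0.257% in these settings.

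The receptor of both ligands, Pdcd1, followed another order. It stood at 2.21, 0.18 and 0.38 CPM in NC, at 11.3, 9.86 and 9.93 in GelMA, at 2.84, 1.90 and 4.69 in CTS and at 2.11 and 3.57 in PLA, so that GelMA lay above every other library. Pdcd1 rose in GelMA over NC by 3.48 on the log2 scale (SE 0.77, adjusted p = 0.020), and PLA differed from NC by 1.62 (SE 0.79, adjusted p = 0.20) and from GelMA by -1.87 (SE 0.83, adjusted p = 0.19). Cd274 made up most of the summed FPKM of its pair with Pdcd1lg2 in every group, with a mean of 99.4% ± 0.629 for NC, of 97.8% ± 0.498 for GelMA, of 98.6% ± 0.470 for CTS and of 99.3% ± 0.0553 for PLA (SD, n as above).

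Cd80 and Cd86, the ligands shared by Cd28 and Ctla4, were highest in GelMA rather than in PLA. Cd80 stood at 9.63, 9.81 and 6.74 CPM in NC, at 66.9, 54.7 and 53.9 in GelMA, at 15.7, 27.5 and 41.6 in CTS and at 19.3 and 21.4 in PLA. In CPM after TMM, GelMA lay above all other libraries and NC below them, while PLA lay inside the range of CTS. In the deposited FPKM, PLA, at 3.91 and 4.28, lay below all CTS libraries, at 4.40 to 11.6. Cd80 rose in GelMA over NC by 2.75 on the log2 scale (SE 0.33, adjusted p = 0.00089), a call that held in all 20 other settings. It rose in PLA over NC by 1.22 (SE 0.34, adjusted p = 0.036), and fell in PLA relative to GelMA by 1.52 (SE 0.36, adjusted p = 0.028). The former call was lost in 13 of 20 settings, among them library size alone (0.90, adjusted p = 0.079) and without NC replicate 3 (0.99, adjusted p = 0.12), and the latter without any 1 GelMA or PLA library (adjusted p from 0.059 to 0.18). The difference of CTS from NC, 1.70 (SE 0.31, adjusted p = 0.064), passed with library size alone (adjusted p = 0.040) and with DESeq2 (adjusted p = 0.00031), among 4 settings that passed. CTS differed from GelMA by -1.05 (SE 0.31, adjusted p = 0.11), which passed in 4 settings.

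Cd86 stood at 8.06, 10.4 and 7.04 CPM in NC, at 24.1, 24.9 and 26.8 in GelMA, at 19.9, 11.9 and 27.7 in CTS and at 15.8 and 17.6 in PLA. NC lay below all other libraries, GelMA above PLA, and CTS spanned PLA and GelMA. Cd86 rose in GelMA over NC by 1.57 on the log2 scale (SE 0.29, adjusted p = 0.0086), and this call held in all 20 other settings. PLA differed from NC by 0.97 (SE 0.31, adjusted p = 0.060) and from GelMA by -0.60 (SE 0.32, adjusted p = 0.28). Scaled by library size alone, the latter was -1.13 with an adjusted p of 0.024, past the threshold, as in all 3 limma fits, and without NC replicate 2 the former was 1.15 with an adjusted p of 0.020. CTS differed from NC by 1.22 (SE 0.29, adjusted p = 0.13), which passed with DESeq2 (adjusted p = 0.011) and without CTS replicate 2 (adjusted p = 0.033). Within the pair, Cd80 held on average 33.3% ± 3.01 of the summed FPKM for NC, 52.8% ± 4.15 for GelMA, 41.0% ± 12.7 for CTS and 37.2% ± 0.0714 for PLA (SD). GelMA, at 49.4% to 57.5%, lay above NC, at 31.4% to 36.8%, and above PLA, at 37.2% to 37.3%.

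**Figure D2:**
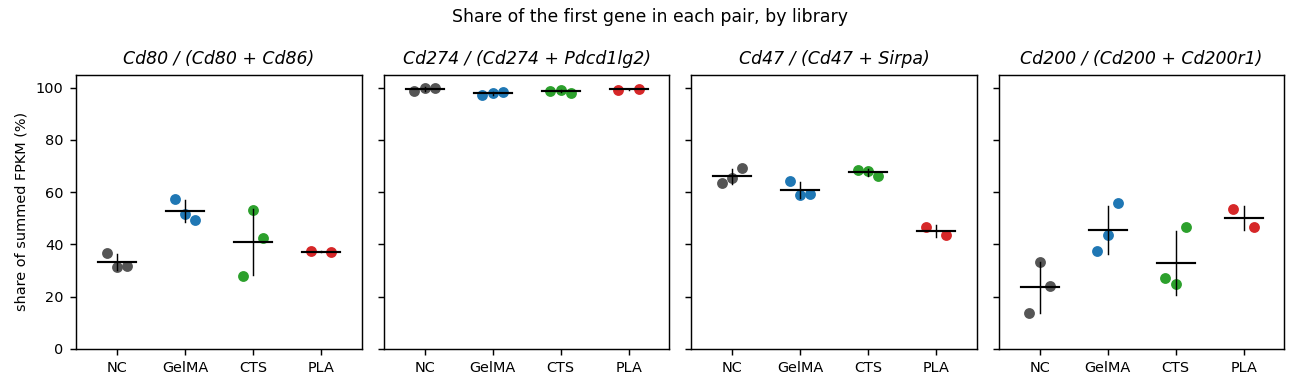
Share of the first gene in the summed FPKM (%) of each ligand or receptor pair, by library, with the group mean and SD as bars. Cd80 takes its largest mean share in GelMA, 52.8%, and Cd47 its smallest in PLA, 45.0%, while Cd274 holds 97.2% or more of its pair in all 11 libraries.

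The receptors of Cd80 and Cd86 were likewise highest in GelMA. Cd28 stood at 21.5, 9.13 and 8.58 CPM in NC, at 200, 171 and 214 in GelMA, at 33.4, 12 and 50.6 in CTS and at 65.5 and 74.9 in PLA. It rose over NC by 3.90 on the log2 scale in GelMA (SE 0.53, adjusted p = 0.0019) and by 2.42 in PLA (SE 0.53, adjusted p = 0.013). Ctla4, the inhibitory receptor of the pair, stood at 1.36, 2.89 and 2.18 CPM in NC, at 98.5, 87.5 and 95.8 in GelMA, at 10.5, 5.37 and 18.6 in CTS and at 22.5 and 38.8 in PLA. Ctla4 rose over NC by 5.45 in GelMA (SE 0.50, adjusted p = 0.00045) and by 3.84 in PLA (SE 0.48, adjusted p = 0.00065). Both lay lower in PLA than in GelMA without overlap, by -1.47 for Cd28 (SE 0.55, adjusted p = 0.13) and -1.62 for Ctla4 (SE 0.48, adjusted p = 0.063), neither of which was called.

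Cd40, the receptor through which helper T cells activate antigen-presenting cells, stood at 5.60, 6.78 and 3.10 CPM in NC, at 15.5, 15.9 and 16 in GelMA, at 9.07, 5.37 and 11.9 in CTS and at 18.1 and 21.4 in PLA. PLA and GelMA lay above all libraries of NC and CTS. Cd40 rose over NC by 1.94 on the log2 scale in PLA (SE 0.37, adjusted p = 0.0063) and by 1.61 in GelMA (SE 0.34, adjusted p = 0.016). The first call was lost without PLA replicate 2 (adjusted p = 0.054) and in edgeR on the 2 groups alone (adjusted p = 0.074), and the other without any 1 GelMA library (adjusted p from 0.055 to 0.064) or in edgeR on those 2 groups (adjusted p = 0.051). PLA differed from GelMA by 0.33 (SE 0.36, adjusted p = 0.63), which turned to -0.21 with library size alone. Its difference from CTS, 1.17 (SE 0.36, adjusted p = 0.057), passed without CTS replicate 3 (1.40, adjusted p = 0.047), NC replicate 2 or NC replicate 3, and with DESeq2 or edgeR on these 2 groups. The ligand Cd40lg stood between 1.27 and 5.14 CPM over the 11 libraries, its groups overlapping between NC and each scaffold, and was not called in any comparison.

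A list of 12 genes covered adaptors, a kinase, ubiquitin ligases and NF-κB subunits downstream of Cd40, and SHP phosphatases. Of these 12, 7 were called higher in PLA than in NC and 0 lower, and without NC replicate 2 the count was again 7. Over all genes tested, 8.32% were called higher and 4.01% lower, or 11.4% and 7.58% without NC replicate 2. Traf1, a signaling adaptor, rose by 3.07 on the log2 scale (SE 0.37, adjusted p = 0.00049) and Nfkb2, a subunit of the noncanonical NF-κB pathway, by 2.61 (SE 0.18, adjusted p = 3.2e-05). The list had 6 called higher in PLA than in GelMA, beside 4.61% of all genes. They were led by Nfkb2 at 1.87 (SE 0.18, adjusted p = 0.00048) and Birc2, a ubiquitin ligase, at 1.58 (SE 0.18, adjusted p = 0.00077). With library size alone that count was 2, with 1 called lower, beside 2.43% and 12.8% of all genes. The list had 7 called higher in PLA than in CTS, beside 6.42% of all genes. They were led by Nfkb2 at 2.50 (SE 0.18, adjusted p = 6.6e-05) and Traf1 at 2.41 (SE 0.36, adjusted p = 0.0022). In GelMA 2 were called higher than in NC, beside 5.03% of all genes. They were Traf1 at 1.59 (SE 0.33, adjusted p = 0.015) and Birc3, another ubiquitin ligase, at 1.09 (SE 0.18, adjusted p = 0.0049). The count of 2 ran from 0 without GelMA replicate 3 to 3 without NC replicate 2, beside 2.62% and 7.26% of all genes. None was called between CTS and NC, with 2 at an unadjusted p under 0.05 and 0 called by DESeq2, or between CTS and GelMA, with 7 at an unadjusted p under 0.05 and 0 by DESeq2. Over all genes, edgeR called 0.155% higher and 0.0222% lower in CTS than in NC, and 0.416% and 1.32% than in GelMA. The shares of all genes at an unadjusted p under 0.05 were not counted. The proteins of this list serve many receptors besides Cd40. The median log2 fold change of the list was 1.24 for PLA against NC, beside -0.11 over all genes tested.

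Cd200r1, an inhibitory receptor of myeloid cells, was not called in any of the 6 comparisons. It stood at 115, 35.0 and 60.8 CPM in NC, at 70.6, 61.1 and 51.7 in GelMA, at 82.3, 76.8 and 70.0 in CTS and at 122 and 130 in PLA. In CPM after TMM, PLA lay above all other libraries and NC spanned GelMA and CTS. In the deposited FPKM, NC replicate 1, at 42.5, lay above both PLA libraries, at 33.8 and 35.6. PLA differed by 0.85 on the log2 scale from NC (SE 0.37, adjusted p = 0.16), by 1.05 from GelMA (SE 0.37, adjusted p = 0.11) and by 0.73 from CTS (SE 0.37, adjusted p = 0.23). Without NC replicate 1 the difference from NC was 1.40 with an adjusted p of 0.0061, and that from GelMA passed without NC replicate 1 or 2 (adjusted p of 0.018 and 0.0081) and in edgeR on these 2 groups (adjusted p = 0.00036). Its ligand Cd200 stood at 15.5, 15 and 16.7 CPM in NC, at 36.5, 41.0 and 56.1 in GelMA, at 26.6, 21.7 and 53.2 in CTS and at 121 and 98.9 in PLA. Cd200 rose in PLA over NC by 2.81 (SE 0.34, adjusted p = 0.00055), over CTS by 1.70 (SE 0.34, adjusted p = 0.0091) and over GelMA by 1.30 (SE 0.33, adjusted p = 0.039), and in GelMA over NC by 1.5 (SE 0.31, adjusted p = 0.015). It belongs to the wider list described below, whose 6 calls higher in PLA than in GelMA fell to 1 when 1 GelMA library was left out. Over all genes the share called higher then fell from 4.61% to between 2.31% and 3.01%. The ligand held 50.04% ± 4.69 of the summed FPKM of the pair in PLA and 23.6% ± 9.81 in NC, with 45.6% ± 9.27 in GelMA and 32.9% ± 12.1 in CTS (SD).

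Sirpa and Cd47 form the receptor and ligand of the signal that restrains phagocytosis. Sirpa stood at 188, 171 and 153 CPM in NC, at 138, 169 and 156 in GelMA, at 152, 153 and 150 in CTS and at 279 and 300 in PLA, which lay above all other libraries. It differed in PLA by 0.76 on the log2 scale from NC (SE 0.15, adjusted p = 0.0076), by 0.91 from GelMA (SE 0.15, adjusted p = 0.0053) and by 0.93 from CTS (SE 0.15, adjusted p = 0.0031). The adjusted p was under 0.05 each time, but the size was under the fold threshold, so that none was called. Over the other settings these differences shrank to 0.43, 0.37 and 0.44 at the least, with adjusted p up to 0.13, 0.18 and 0.10. Among NC, GelMA and CTS the libraries of Sirpa overlapped. Cd47 was the most abundant of the 8 per length in NC, at 72.1 FPKM. It stood at 418, 417 and 440 CPM in NC, at 320, 309 and 290 in GelMA, at 426, 415 and 375 in CTS and at 313 and 295 in PLA. In CPM after TMM, GelMA and PLA, which overlapped each other, lay below all of NC and CTS. In the deposited FPKM, GelMA, at 56.1 to 63.3, overlapped NC, at 57.9 to 82.9, and PLA, at 39.4 and 42.2, lay below every other library. PLA differed from GelMA by -0.0093 on the log2 scale (SE 0.14, adjusted p = 0.98), and by -0.55 to 0.035 over the other settings. Cd47 was lower than in NC by -0.48 in PLA (SE 0.14, adjusted p = 0.048) and by -0.47 in GelMA (SE 0.13, adjusted p = 0.042), again under the fold threshold. Over 20 other settings the adjusted p ran from 0.0020 to 0.40 for PLA, at -0.82 to -0.43, and from 0.00017 to 0.36 for GelMA, at -0.57 to -0.26. Cd47 differed between PLA and CTS by -0.41 (SE 0.14, adjusted p = 0.085).

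In CPM after TMM, Sirpa in PLA lay above every other group, and Cd47 lay below NC and CTS but not below GelMA. Cd47 held 45.0% ± 2.25 of the summed FPKM of the pair in PLA, where the libraries lay at 43.4% and 46.6%. It held 66.0% ± 2.97 for NC, 60.8% ± 3.12 for GelMA and 67.5% ± 1.32 for CTS (SD), and the 9 libraries of these groups all lay at 58.8% or more. An exact permutation test (two-sided) gave p = 0.2 for PLA against each of these groups, the smallest p that 3 against 2 libraries allow, with 0.1 the smallest for 3 against 3. After adjustment over the 24 comparisons of pair shares the smallest p was 0.34, so that the shares are descriptions. Thbs1, an extracellular ligand of Cd47, stood at 680, 1049 and 1139 CPM in NC, at 699, 862 and 791 in GelMA, at 785, 681 and 912 in CTS and at 2436 and 2211 in PLA. Thbs1 rose in PLA by 1.28 on the log2 scale over NC (SE 0.24, adjusted p = 0.0059), by 1.57 over GelMA (SE 0.24, adjusted p = 0.0036) and by 1.55 over CTS (SE 0.24, adjusted p = 0.0026). Like Cd200, Thbs1 belongs to the wider list, whose calls in PLA over GelMA changed with the libraries kept, as did those over all genes. Sirpa and Cd200r1 belong to families of similar genes, and how reads shared with relatives were counted is not given in the sources used here.

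**Figure D3:**
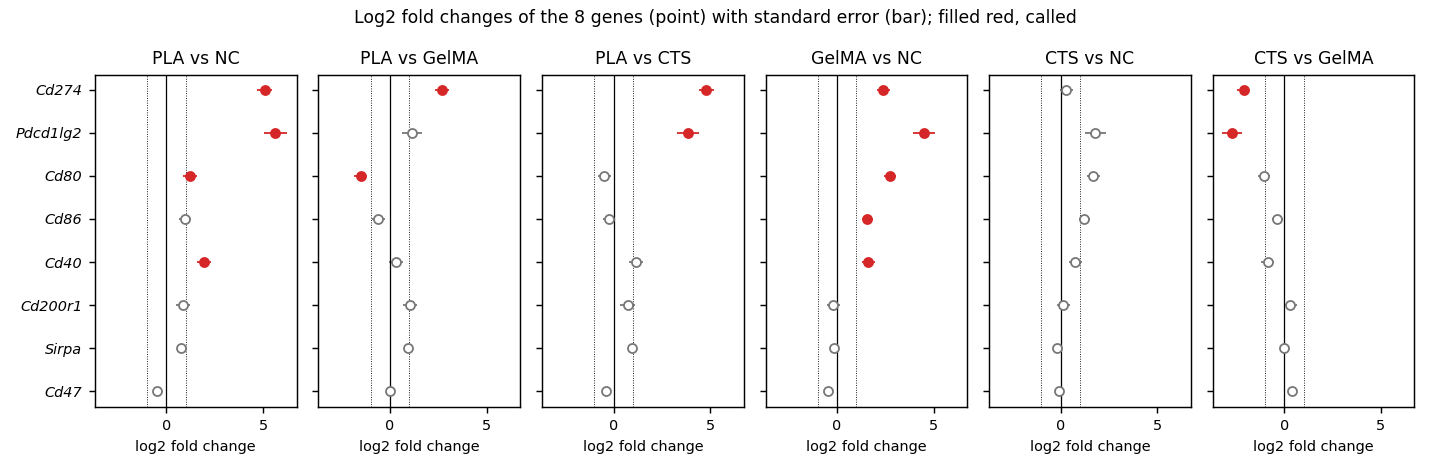
Log2 fold changes (points) with standard errors (bars) of the 8 genes in the 6 comparisons, where filled red points were called and dotted lines mark a size of 1. Calls against NC fall on Cd274, Pdcd1lg2, Cd80, Cd86 and Cd40 in GelMA and on Cd274, Pdcd1lg2, Cd80 and Cd40 in PLA, and none fall on Cd200r1, Sirpa or Cd47.

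Per length, the order of the 8 genes differed between groups. In NC the means ran from 72.1 FPKM for Cd47 through 37.1 for Sirpa, 25.3 for Cd200r1, 17.4 for Cd274, 4.35 for Cd86, 2.75 for Cd40 and 2.19 for Cd80 to 0.0912 for Pdcd1lg2. In PLA they ran from 472 FPKM for Cd274 through 49.8 for Sirpa, 40.8 for Cd47, 34.7 for Cd200r1, 8.62 for Cd40, 6.91 for Cd86 and 4.09 for Cd80 to 3.44 for Pdcd1lg2. Neighbours in this order overlapped in NC for Sirpa and Cd200r1, for Cd200r1 and Cd274 and for Cd40 and Cd80, and no neighbours overlapped in PLA. In GelMA Cd274 again led, at 64.9 to 155 FPKM with an SD of 45.8 (n = 3), followed by Cd47 at 59.6 ± 3.61, and the lowest Cd274 library, at 64.9, lay just above the highest of Cd47, at 63.3. In CTS Cd47 led at 75.8 FPKM and Cd274 stood at 23.7 FPKM. Cd80 and Cd86 stood at 17.1 ± 2.37 and 15.2 ± 0.728 FPKM in GelMA, whose ranges overlapped.

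Set against Ptprc in the same library, PLA lay above all other libraries for Cd274 and Pdcd1lg2, while several differences from NC overlapped. Per 1000 CPM of Ptprc, Cd274 stood at 2765 and 3041 in PLA, at 209 to 545 in GelMA, at 69.8 to 109 in CTS and at 43.2 to 288 in NC, whose highest value was that of NC replicate 2. Pdcd1lg2 stood at 30.0 and 30.4 in PLA, at 8.52 to 14.4 in GelMA, at 1.04 to 3.01 in CTS and at 0.426 to 0.814 in NC, without overlap. Cd80 stood at 42.8 to 49.6 in GelMA, above all other libraries, and at 18.9 and 20.3 in PLA, inside the range of NC. Cd86 and Cd40 in GelMA lay inside the range of NC, at 17.9 to 21.9 against 5.52 to 31.0 for Cd86 and at 11.5 to 13.9 against 2.66 to 20.1 for Cd40. Cd200r1 stood at 120 and 123 in PLA, above all other libraries, the highest of which was NC replicate 2 at 104. Sirpa in PLA, at 274 and 284, lay above GelMA and CTS but inside the range of NC, 129 to 509. The exact permutation test (two-sided) over the 48 comparisons gave no adjusted p under 0.34, at a smallest unadjusted p of 0.1 for 3 against 3 and 0.2 for 3 against 2 libraries. Set against the summed macrophage markers instead, PLA lay above all other libraries for Cd274, Pdcd1lg2, Cd40 and Cd200r1, but Lyz2, which was lowest on average in PLA, sets that scale. Against the sum without Lyz2, an alternative chosen after seeing the data, PLA lay above all others for Cd274, at 943 and 1077 per 1000 CPM of markers where the highest other value was 257, and for Pdcd1lg2, at 10.4 and 10.6 where it was 6.77. Cd40 and Cd200r1 in PLA, at 6.06 to 7.2 and 40.97 to 43.7, then overlapped CTS, and Cd200r1 was lower than in all NC libraries.

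**Figure D4:**
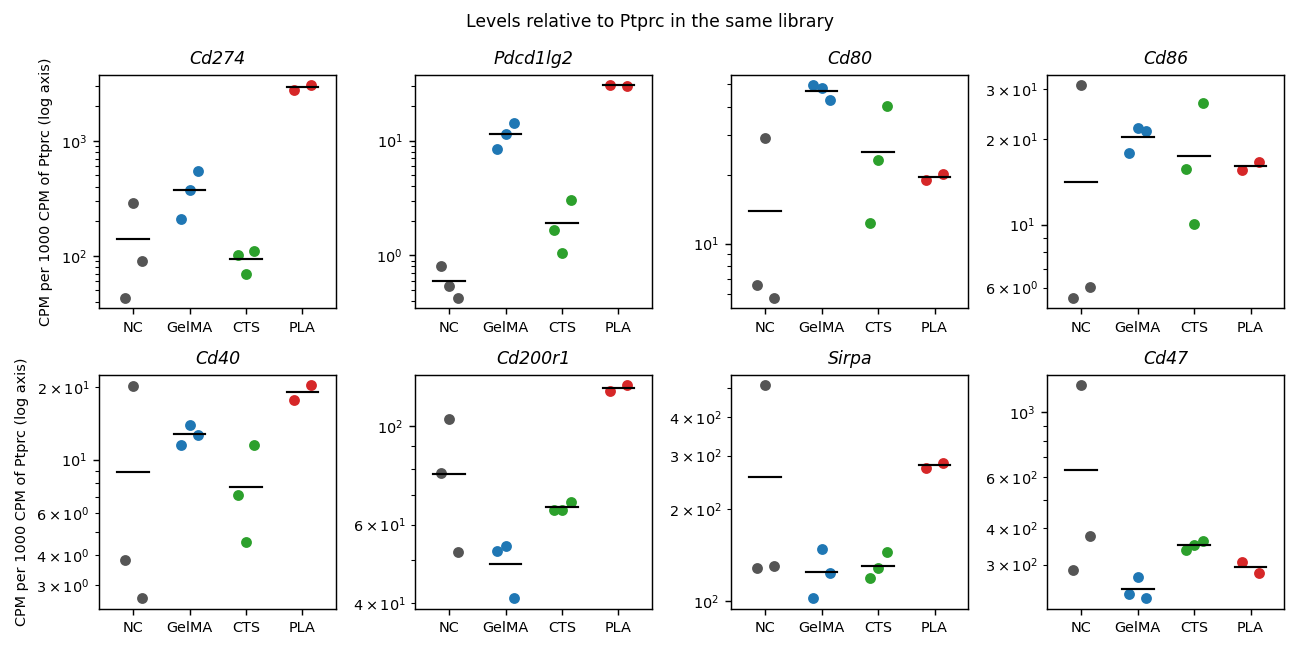
CPM of each gene per 1000 CPM of Ptprc in the same library (log axis), with points for libraries and a bar for the group mean. Cd274, Pdcd1lg2 and Cd200r1 are highest in both PLA libraries and Cd80 in the GelMA libraries, and the high NC point in most panels is NC replicate 2, which had 336 CPM of Ptprc.

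Markers of cells that carry or meet these proteins differed between the groups, and their part in the results was not tested. The 11 T and NK cell markers tested summed to 78.2 to 91.6 CPM in NC, 779 to 878 in GelMA, 118 to 297 in CTS and 334 to 384 in PLA, and 10 of them were called higher than in NC in GelMA and 10 in PLA. Over all genes tested, 5.03% were called higher than in NC in GelMA and 8.32% in PLA. The 9 B cell markers summed to 33.0 to 54.3 CPM in NC, 351 to 532 in GelMA, 113 to 167 in CTS and 58.6 to 79.9 in PLA, with 9 called higher in GelMA than in NC and 8 lower in PLA than in GelMA. The same calls fell on 5.03% and 1.47% of all genes. The 12 dendritic cell markers summed to 224 to 535 CPM in NC, 992 to 1216 in GelMA, 594 to 806 in CTS and 1393 to 1436 in PLA. Itgax made up 851 to 898 CPM of the PLA sums and 250 to 403 of those of GelMA, and without it GelMA, at 742 to 813, lay above PLA, at 539 to 543, CTS, at 269 to 491, and NC, at 132 to 172. In PLA the mean was below that in GelMA for 7 of the other 11 markers, among them Irf8, Cd83 and Ccr7. Of the 12 markers, 8 were called higher in GelMA and 7 in PLA than in NC, beside 5.03% and 8.32% of all genes. The 19 macrophage and monocyte markers summed to 2896 to 11684 CPM in NC, 6587 to 10076 in GelMA, 11100 to 13675 in CTS and 6067 to 6691 in PLA. That sum was carried by Lyz2, a lysozyme that neutrophils express as well, at 2306 to 10182 CPM in NC, 3919 to 7268 in GelMA, 9389 to 12098 in CTS and 3079 to 3711 in PLA, and without it the other 18 summed to 590 to 1502 in NC, 2423 to 2808 in GelMA, 1569 to 1711 in CTS and 2980 to 2988 in PLA, so that the order turned and PLA was highest. Of 18 macrophage markers tested, 13 were called higher in GelMA and 7 in PLA than in NC, beside 5.03% and 8.32% of all genes. The 10 neutrophil markers summed to 9803 to 72497 CPM in NC, 5365 to 12843 in GelMA, 28968 to 49519 in CTS and 11784 to 11864 in PLA. S100a8 and S100a9 made up most of it, and without them the sums were 2780 to 18816 CPM in NC, 1400 to 2301 in GelMA, 4671 to 12285 in CTS and 4131 to 4613 in PLA, where the means of 2 of the other 8 markers, Csf3r and Lcn2, lay above those in CTS and NC. The 12 fibroblast and osteoblast markers summed to 25348 to 26331 CPM in GelMA, 22994 to 37222 in CTS and 25434 to 38417 in PLA, which overlapped CTS, and the 6 endothelial markers to 130 to 276 CPM in NC, 165 to 184 in GelMA, 157 to 335 in CTS and 266 to 290 in PLA. Marco was at 0 counts in every library but CTS replicate 1, Cd163, Batf3 and Klrd1 were at 0 in NC replicate 1, and Sp7 in NC replicate 2 and PLA replicate 2.

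Beyond the 8 genes, 44 other checkpoint and costimulation genes were listed, of which 43 were in the tables and 42 were tested. Against NC, 16 were called higher in PLA and 0 lower, and 19 were called higher in GelMA and 1 lower. Over all genes tested, 8.32% were called higher and 4.01% lower in PLA, and 5.03% and 3.21% in GelMA. Without NC replicate 2, the counts for PLA were 22 higher and 3 lower, and those for GelMA 21 and 2, and without PLA replicate 1 the count for PLA was 10 higher. The median log2 fold change of the list was 1.43 in PLA and 1.29 in GelMA, also with genes at 0 in NC held at their bound, beside -0.11 and -0.05 over all genes. By fitted size the first called in both were Tnfsf4, the OX40 ligand, Ido1, an enzyme that degrades tryptophan and restrains T cells, and Ctla4. Tnfsf4 had 0 counts in the 3 NC libraries and stood at 2.34, 2.37 and 2.16 CPM in GelMA and at 1.58 and 1.72 in PLA, at least 54.8-fold and at least 39.4-fold higher than a floor of 3 counts over the NC group. Ido1 also had 0 counts in NC and stood at 0.90, 0.52 and 1.64 CPM in GelMA and at 0.50 and 0.90 in PLA, at least 24.4-fold and at least 16.8-fold higher than that floor, which covers counting error only. As lower bounds these give neither gene a measured rank, and that of Ido1 in GelMA, 4.61 on the log2 scale, was below the rise of Ctla4. Ceacam1, an inhibitory adhesion receptor that neutrophils carry as well, fell in GelMA relative to NC by 2.61 on the log2 scale (SE 0.51, adjusted p = 0.012), and 1 lower call became 0 without GelMA replicate 2 or 3. Without these libraries 0.837% and 0.72% of all genes were called lower, from 3.21%.

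**Figure D5:**
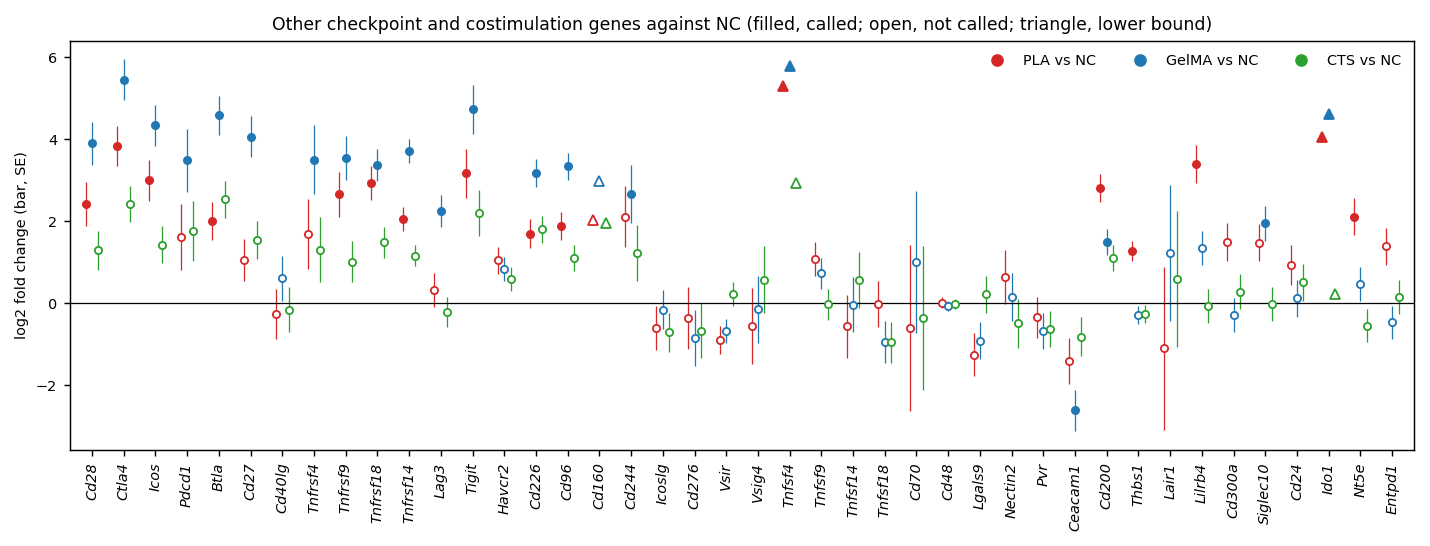
Log2 fold changes against NC with standard errors (bars) of the other checkpoint and costimulation genes tested, where filled symbols were called and triangles are lower bounds for Cd160, Tnfsf4 and Ido1, which had 0 counts in NC. For most T cell receptors, from Cd28 to Tigit, the GelMA point lies above the PLA point, while for Lilrb4, Cd200, Thbs1 and Nt5e the PLA point lies above.

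PLA and GelMA differed within this list, with 6 genes called higher in PLA and 6 lower, against 4.61% and 1.47% of all genes. Those called higher were led by Lilrb4, an inhibitory receptor of myeloid cells, Entpd1, which breaks down extracellular ATP, and Cd300a, another inhibitory myeloid receptor. Lilrb4 stood at 446, 127 and 462 CPM in NC, at 652, 882 and 1091 in GelMA, at 286, 300 and 400 in CTS and at 3643 and 3624 in PLA, and rose in PLA over GelMA by 2.05 on the log2 scale (SE 0.46, adjusted p = 0.022). Entpd1 rose by 1.85 (SE 0.45, adjusted p = 0.033) and Cd300a by 1.77 (SE 0.47, adjusted p = 0.042). Those called lower were led by the lymphocyte receptors Cd27, by -3.00 (SE 0.56, adjusted p = 0.010), Btla, by -2.57 (SE 0.50, adjusted p = 0.013), and Lag3, by -1.93 (SE 0.44, adjusted p = 0.025). With library size alone the split was 1 higher and 10 lower, against 2.43% and 12.8% of all genes. Leaving out 1 GelMA library left 1 higher in each case and at most 3 lower, beside 2.31% to 3.01% and 0.369% to 0.676% of all genes. Without CTS replicate 1 or NC replicate 3 there were 3 higher, beside 3.67% and 4.13% of all genes. In the fit to all libraries the list's median was -0.47.

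PLA had 5 of the list called higher than in CTS and 0 lower, or 4 and 2 with library size alone. The shares of all genes were 6.42% and 3.53%, or 3.81% and 12.3% with library size alone. Lilrb4 rose by 3.47 on the log2 scale (SE 0.47, adjusted p = 0.0014), Nt5e, which makes adenosine and is also a marker of mesenchymal stromal cells, by 2.65 (SE 0.45, adjusted p = 0.0045) and Cd200 by 1.70. Without NC replicate 2 these counts were 12 and 2, without NC replicate 1 they were 10 and 1, and without CTS replicate 3 there were 9 higher. Without NC replicate 2, 8.88% of all genes were called higher in PLA than in CTS and 6.21% lower. The shares were 7.95% and 4.74% without NC replicate 1, and 5.44% higher without CTS replicate 3. CTS had 12 called lower than in GelMA and 0 higher, beside 1.32% and 0.416% of all genes. The 12 were led by Ctla4 at -3.03 (SE 0.44, adjusted p = 0.014), Icos, a costimulatory receptor of activated T cells, at -2.91 (SE 0.47, adjusted p = 0.018) and Cd28 at -2.61 (SE 0.50, adjusted p = 0.031). That count was 0 without CTS replicate 1, 1 without any 1 GelMA library and 4 without CTS replicate 2. Calls over all genes fell as well. The share called lower was 0.00559% without CTS replicate 1, 0.128% to 0.257% without a GelMA library and 0.235% without CTS replicate 2. Between CTS and NC none of the 42 was called by edgeR, with 14 at an unadjusted p under 0.05, all 14 higher in CTS, 8 called higher by DESeq2, 0 by limma on log2(FPKM + 1) and 4 by edgeR without CTS replicate 2. Over all genes, DESeq2 called 1.99% higher, that limma fit 0.297%, and edgeR 0.155%, or 0.722% without CTS replicate 2. The share of all genes at an unadjusted p under 0.05 was not counted, so those 14 have no background beside them.

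For each of the 8 genes the closest profiles over the 11 libraries were sought among 9258 genes, by the root mean square difference of log2 CPM after centring each gene on its mean, where a smaller value is closer. Cd274 was closest to Batf (0.39), a transcription factor of lymphocytes and dendritic cells, and to Csf3 (0.41), which encodes G-CSF. Pdcd1lg2 was farther from any gene, with Sdc1 (0.61) and Il1a (0.64) nearest. Cd80 lay closest to Ctss (0.36), the lysosomal protease of antigen presentation, and Cd226 (0.37), a T and NK cell receptor, and Cd86 to Shisa5 (0.22) and Tmem176b (0.24). Cd40 lay closest to Parvb (0.23) and Dram1 (0.23), Cd200r1 to Acsl4 (0.17) and Exo5 (0.17), Sirpa to Rab7a (0.096) and Pip5k1a (0.11), and Cd47 to Golga5 (0.072) and Hsd17b12 (0.084). Among the 8 genes themselves the closest were Cd200r1 and Sirpa (0.41), Cd86 and Cd40 (0.49) and Sirpa and Cd47 (0.50), and the ligands Cd274 and Pdcd1lg2 were 1.13 apart, nearer to each other than to any of the other 6. Genes of small range lie close to many others by this measure, and the libraries are the same that gave the tests above.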

How the data were processed

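RNA-seq was measured in 11 libraries of Cd45- cells, mapped to 4 groups by the labels. The submitters' processing notes name fastp, HISAT2, HTSeq, DESeq and the assembly mRatBN7.2; versions, parameters and strand setting are not given in the sources used here. They deposited raw counts and FPKM values per gene. FPKM equalled count over length and library total in 205408 of 205408 values above 0 (relative tolerance 0.001), so it carries no composition factor.

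The count analysis used edgeR 4.0.16 under R 4.3.3 (filterByExpr with minimum count 10, TMM, robust quasi-likelihood, all 4 groups, no covariate). Differences were called where p, adjusted by Benjamini-Hochberg, fell under 0.05 and the log2 fold change exceeded 1. Each SE is the log2 fold change divided by the square root of F. Permutation tests used scipy 1.17.1, and figures matplotlib 3.10.9. Alternatives were scaling by RLE or by library size alone, testing without the filter, calling at any fold, edgeR on 2 groups, DESeq2 1.42.0, limma 3.58.1 on log2(FPKM + 1) with and without a filter at FPKM 1 in 2 libraries and on log2(FPKM + 0.1), a block for replicate number, and omission of each library. The edgeR and limma steps were run on simulated counts of even makeup with known changes in PLA alone, which checks the code and not the calls above. For a group at 0 counts, folds were computed against 3 counts over that group.

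The members and lists were chosen with earlier results of these data known. Named by rule were the 8 members, Ptprc, known partners, up to 3 called genes per direction and comparison of the wider list and 2 of the Cd40 list, and the 2 nearest profiles of each member, among tested genes whose average log2 CPM reached 3 and names not starting with LOC, RGD or AABR. Promoter windows came from RefSeq (GRCr8). Reads were not analysed here.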

Additional observations from a re-analysis of the deposited data

How the results depend on the processing

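Of the 15 calls of single members, 9 held in all 20 alternatives, and 36 of 300 alternative fits, over the other 6 calls, took a call below the threshold; none of the 15 changed direction. Of the 33 differences not called, 10 passed in 27 fits and 8 changed sign in 29.

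Member counts moved as follows. In edgeR on 2 groups, 2 (from 4) were higher in PLA than NC and 3 (from 1) in PLA than GelMA. Over all genes, 3.56% (from 8.32%) and 10.1% (from 4.61%) were then called higher. With no fold threshold, 1 was lower in PLA than NC, 1 lower in GelMA than NC and 2 higher in PLA than GelMA. The same calls fell on 5.5%, 3.97% and 5.99% of all genes. With library size alone and each limma fit, 2 (from 1) were lower in PLA than GelMA, and with the replicate block 0. Of all genes, 5.36% to 18.1% were called lower in the former fits and 0.609% with the block, from 1.47%. For CTS against NC, 1 was higher with library size alone, no filter or limma on log2(FPKM + 0.1), and 3 with DESeq2. The shares of all genes were 0.432%, 0.227%, 0.51% and 1.99%. When an NC, GelMA or CTS library was left out, 6.56% to 11.4% of all genes were higher for PLA against NC. For PLA against GelMA 2.31% to 7.2% were higher and 0.369% to 3.49% lower. For CTS against NC 0% to 0.722% were higher, and for CTS against GelMA 0.00559% to 3.38% were lower. Leaving out each library gave 2 to 5 higher for PLA against NC, 1 to 3 higher and 0 to 1 lower for PLA against GelMA, 0 to 1 higher for CTS against NC and 0 to 3 lower for CTS against GelMA.

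For the wider list, PLA against NC gave 7 higher (from 16) in edgeR on 2 groups and 1 lower with DESeq2. Of all genes, 3.56% (from 8.32%) were called higher in the former fit and 7.52% (from 4.01%) lower in the latter. PLA against GelMA (6 and 6) gave 1 higher and 10 lower with library size alone, 2 and 13 with limma on log2(FPKM + 1), 1 and 13 without its filter, 1 and 11 with a pseudocount of 0.1, and 12 lower in edgeR on 2 groups. Over all genes, 2.43% were called higher and 12.8% lower with library size alone, from 4.61% and 1.47%. In the 3 limma fits the shares were 3.35% and 10.9%, 1.55% and 5.36%, and 3.42% and 18.1%. In edgeR on 2 groups 4.98% were called lower. PLA against CTS (5 and 0) gave 9 higher and 2 lower in edgeR on 2 groups and 11 and 2 with DESeq2, with 2 lower with library size alone and both filtered limma fits and 1 lower without a filter in edgeR or limma. The shares of all genes were 9.24% and 6.7% in edgeR on 2 groups and 9.04% and 6.03% with DESeq2. Those called lower were 12.3% with library size alone, 11.2% and 16.6% in the filtered limma fits, and 2.69% and 4.97% without a filter. CTS against NC gave 2 higher with library size alone or limma on log2(FPKM + 0.1), 1 without a filter and 8 with DESeq2. The shares of all genes were 0.432%, 0.51%, 0.227% in edgeR without a filter, and 1.99%. CTS against GelMA gave 2 higher and 19 lower (from 12) in edgeR on 2 groups, and 1 higher with DESeq2. Of all genes, 4.94% and 4.63% were called in the former fit, and 3.4% higher with DESeq2. When an NC, GelMA or CTS library was left out, PLA against CTS had 4.14% to 8.88% of all genes higher and 1.82% to 6.21% lower. GelMA against NC had 2.62% to 7.26% higher and 0.72% to 6.71% lower. Leaving out each library gave 10 to 22 higher and 0 to 3 lower for PLA against NC, 1 to 6 and 0 to 8 for PLA against GelMA, 3 to 12 and 0 to 2 for PLA against CTS, 13 to 21 and 0 to 2 for GelMA against NC, 0 to 4 higher for CTS against NC, and 0 to 2 and 0 to 16 for CTS against GelMA.

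For the Cd40 list, PLA against GelMA gave 2 higher (from 6) with library size alone and each limma fit, and 1 lower with library size alone and limma on log2(FPKM + 0.1). Of all genes, 1.55% to 3.42% (from 4.61%) were higher in these fits, and 12.8% and 18.1% lower in the latter 2. GelMA against NC (2) gave 4 with library size alone or limma on log2(FPKM + 0.1), 1 in edgeR on 2 groups, 6 with no fold threshold and 0 to 3 without each NC, GelMA or CTS library. The shares of all genes were 6.74%, 9.67%, 3.01%, 6.74% and 2.62% to 7.26%, from 5.03%.

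Signs of differences that were not called turned for Cd40 in PLA against GelMA (-0.21 with library size alone, -0.20 with limma on log2(FPKM + 1) with or without its filter, -0.21 with 0.1), Cd200r1 in GelMA against NC (0.15 with limma on log2(FPKM + 1) with or without its filter, 0.17 with 0.1) and Sirpa in GelMA against NC (0.056 with library size alone, 0.065 with limma on log2(FPKM + 1) with or without its filter, 0.067 with 0.1). They also turned for Cd47 in CTS against NC (0.071 with library size alone, 0.084 with limma on log2(FPKM + 1) with or without its filter, 0.085 with 0.1) and in PLA against GelMA (0.035 with RLE or DESeq2, 0.011 in edgeR on 2 groups), and for Sirpa in CTS against GelMA (0.00093 with no filter). Leaving out each library gave -0.55 to 0.020 for Cd86 in PLA against CTS, and for Cd200r1 -0.52 to 0.35 in GelMA against NC and -0.20 to 0.67 in CTS against NC. It gave -0.067 to 0.073 for Sirpa in CTS against GelMA and -0.070 to 0.027 for Cd47 in PLA against GelMA.

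By counts in place of FPKM, which ignore length, the share of Cd80 beside Cd86 was 50.6%, 69.7%, 58.0% and 54.9% in NC, GelMA, CTS and PLA, that of Cd47 beside Sirpa 71.4%, 66.5%, 72.8% and 51.2%, and that of Cd274 beside Pdcd1lg2 96.8%, 98.1% and 99.0% in GelMA, CTS and PLA. Per summed macrophage markers in place of Ptprc, the log2 difference turned to -0.20 for Cd200r1 and -0.12 for Cd47 in CTS against GelMA and to 0.55 for Cd47 in PLA against CTS, and, among groups that overlap per Ptprc, to 0.59 for Cd80 and 0.80 for Cd86 in PLA against CTS, -0.082 for Cd40 in CTS against NC and -0.55 for Sirpa in CTS against GelMA. With Lyz2 left out of that sum, chosen after seeing the data, it turned to -0.54 and -0.15 for Cd200r1 in PLA against NC and CTS and to -0.19 for Cd47 in PLA against GelMA, and, among overlapping groups, to -0.31 for Cd80, -0.56 for Cd86 and -0.79 for Sirpa in PLA against NC and 0.27 for Cd86 in CTS against GelMA. The cause of these changes was not tested.

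The replicate numbers do not pair libraries by any label. Over 15 same-numbered pairs, deviations from the group means correlated between -0.11 and 0.12, with 1 above 0.1, and 5 of 11 libraries correlated best with their own number. With the replicate block, Cd80 was called neither in PLA against NC (adjusted p = 0.072) nor against GelMA (adjusted p = 0.076), and no other member call changed. Depth limits Pdcd1lg2 most, at 4 to 28 counts a library in NC.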
